A study of Mus musculus with 6 samples.

Results

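The inhibitory checkpoint receptors described here are 10 mouse genes, Pdcd1, Havcr2, Lag3, Ctla4, Tigit, Cd101, Vsir, Cd200, Btla and Entpd1, out of 46517 gene identifiers in the count tables. They were chosen by name as receptors or surface proteins that restrain immune cells. All are called receptors below, although CD200 is a ligand and CD39 (Entpd1) an enzyme. All 10 passed the filter on low counts, which left 12407 genes to test. They were measured in CD8 T cells of C57BL/6J mice, for which naive T cells from spleen and lymph nodes were activated over 3 days by IL-2, antibody to CD28 at 0.5 µg/mL and antibody to CD3 at 5 µg/mL bound to the plate. From day 1 to day 2 the cells of 3 libraries received supernatant of basophils cultured for 2 days with IL-2 and with IL-3 at 3 ng/mL (IL-3 supernatant), and those of the other 3 received supernatant of basophils cultured with IL-2 and PBS (PBS supernatant). Basophils are scarce blood granulocytes that IL-3 helps to grow and activate. Whether the 3 libraries of a group stem from separate animals or cultures is not in the labels, so the p-values below reflect spread among libraries that may be purely technical. No group received medium without basophil supernatant, so each comparison is between the supernatants.

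Checkpoint receptors are induced when a T cell is activated through its antigen receptor, and they dampen signalling when they bind ligands on other cells. PD-1 (Pdcd1), BTLA and CTLA-4 belong to the CD28 family, and several of them recruit phosphatases or compete with an activating receptor for its ligand. CD39 (Entpd1) acts as an enzyme: it breaks down extracellular ATP, and CD73 (Nt5e) then makes adenosine, which acts on T cells through adenosine receptors. In CD8 T cells, high levels of several of these receptors together are a known feature of exhaustion in chronic infection and tumours, and many of them are also induced by ordinary activation.

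With IL-3 supernatant, the transcripts of Cd200, Lag3 and Btla rose and those of Cd101, Entpd1 and Vsir fell, while Pdcd1, Havcr2, Ctla4 and Tigit did not pass the test. In edgeR's quasi-likelihood test with Benjamini-Hochberg adjustment over all genes (threshold 0.05), 6 of the 10 receptors were called, against 30.9% of all genes tested. The call was higher for 3 receptors, against 14.8% of all genes, and lower for 3, against 16.1% of all genes. The change was called and at least 2-fold for 2 of the 10, Cd101 and Entpd1, against 7.79% of all genes. The values of the groups did not overlap for 6 of the 10, against 43.6% of all genes, and these were Lag3, Cd200, Cd101, Entpd1, Vsir and Tigit. The median log2 fold change was -0.11 over the 10 receptors and -0.0047 over all genes tested. These shares describe the 10 genes and carry no test of their own.

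The promoters of 4 receptors are printed because these genes changed in opposite directions: Cd101 and Vsir fell, and Cd200 and Btla, which neighbour each other on chromosome 16, rose. Each line is the 250 bases before the annotated start, 5′ to 3′ on the gene's own strand, from RefSeq on GRCm38.p6. The Cd101 stretch is chr3:101029554-101029803 on the minus strand, that of Vsir is chr10:60346601-60346850 on the plus strand, that of Cd200 is chr16:45409054-45409303 on the minus strand and that of Btla is chr16:45224087-45224336 on the plus strand. Capitals mark matches on either strand to 2 of 6 motifs searched, the NFAT core and the GATA motif; the Vsir and Btla stretches held none.
Cd101: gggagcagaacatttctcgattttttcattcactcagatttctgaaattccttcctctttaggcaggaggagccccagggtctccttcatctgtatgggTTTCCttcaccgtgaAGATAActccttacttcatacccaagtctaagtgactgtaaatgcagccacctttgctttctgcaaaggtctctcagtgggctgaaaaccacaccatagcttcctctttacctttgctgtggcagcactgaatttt
Vsir: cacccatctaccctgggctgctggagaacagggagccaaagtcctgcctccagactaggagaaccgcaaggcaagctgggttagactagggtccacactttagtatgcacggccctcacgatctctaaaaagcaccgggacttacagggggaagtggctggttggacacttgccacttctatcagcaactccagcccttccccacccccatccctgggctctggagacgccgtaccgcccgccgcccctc
Cd200: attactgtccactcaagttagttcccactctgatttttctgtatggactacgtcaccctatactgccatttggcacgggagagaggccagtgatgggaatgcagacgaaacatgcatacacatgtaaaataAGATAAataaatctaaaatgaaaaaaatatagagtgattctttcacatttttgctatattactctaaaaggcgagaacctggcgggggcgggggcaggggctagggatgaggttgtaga
Btla: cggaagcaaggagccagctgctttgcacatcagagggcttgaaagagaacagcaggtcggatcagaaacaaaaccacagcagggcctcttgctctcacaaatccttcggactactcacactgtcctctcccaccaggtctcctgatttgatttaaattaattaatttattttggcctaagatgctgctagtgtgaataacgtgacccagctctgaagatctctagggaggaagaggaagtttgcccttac
The table of promoters held 9 of the 10 receptor genes, with 2 starts for Entpd1, and Lag3 was the gene without an entry. On either strand, the NFAT core GGAAA was present in 5 of the 10 receptor promoters and in 55.6% of all 32851 promoters of the same length. The GATA motif AGATAA was present in 3 of the 10, those of Cd101, Cd200 and Tigit, and in 9.99% of all promoters. It therefore stood in the promoter of a gene that fell, of a gene that rose and of a gene that did not pass. The AP-1 motif TGANTCA was present in 1 of the 10, that of Havcr2, and in 6.75% of all promoters. The STAT motif TTCNNNGAA, a motif of the IRF family and the T-box motif GGTGTGA were in none of the 10, and in 7.02%, 2.98% and 3.33% of all promoters. The NFAT and GATA letters do not overlap each other in these windows. The promoter of Vsir was 60.4% G and C, those of Cd101, Cd200 and Btla were 45.2%, 42.4% and 47.2%, and the median over all promoters was 52.4%.

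**Figure D1:**
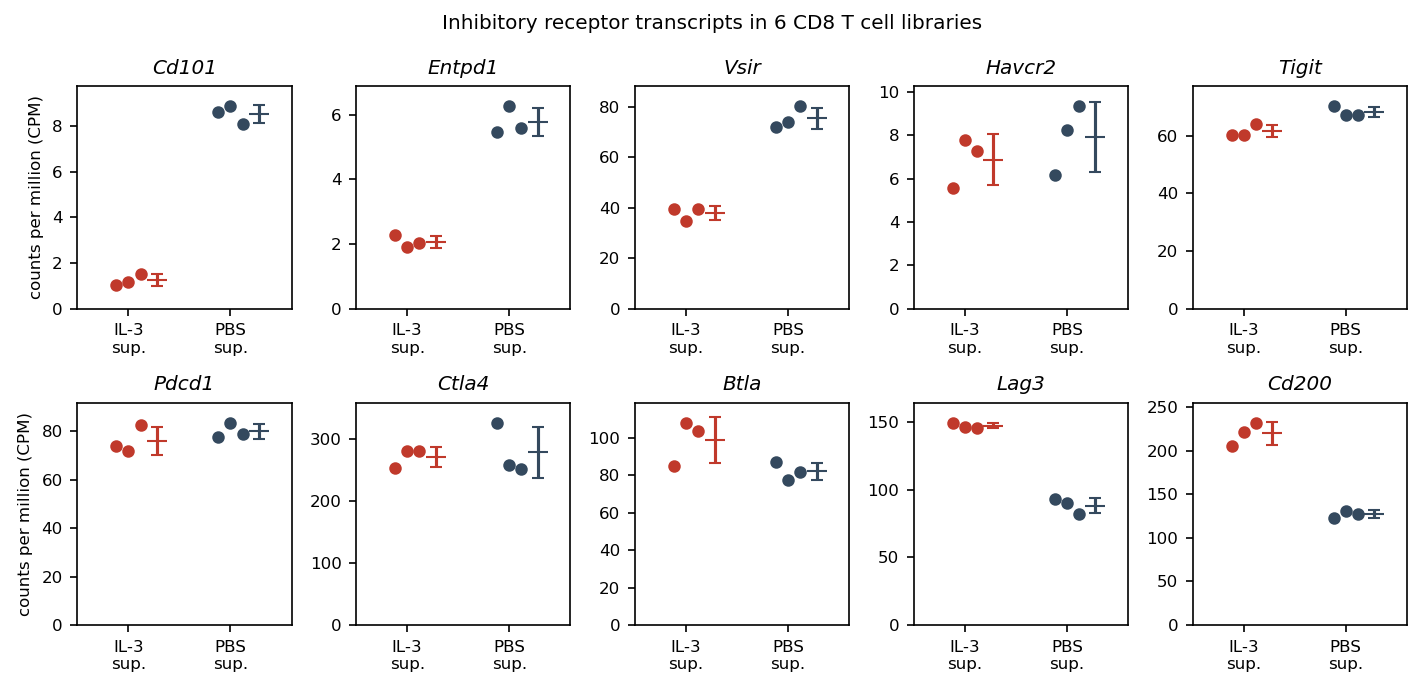
Transcript level in CPM, counts scaled to library size, of the 10 receptor genes, 1 point per library, with IL-3 supernatant on the left and PBS supernatant on the right of each panel, and the mean ± SD (n = 3) beside the points. Panels run from the lowest to the highest fold change, and the groups lie apart for Cd101, Entpd1, Vsir, Tigit, Lag3 and Cd200.

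Among the genes of the set that rose, Cd200 changed most. CD200 is a surface glycoprotein that restrains cells carrying its receptor. Cd200 (ENSMUSG00000022661, chromosome 16, 45382135 to 45409053, GRCm38) had 205.3, 222 and 232 CPM with IL-3 supernatant, against 123, 131 and 128 CPM with PBS supernatant. CPM are counts scaled to library size after correction for library composition. Every library with IL-3 supernatant was above every library with PBS supernatant. The mean was 220 ± 13.4 CPM with IL-3 supernatant and 127 ± 4.22 CPM with PBS supernatant (SD, n = 3 each). This was a 1.73-fold rise, or 0.79 on the log2 scale (SE 0.06, edgeR adjusted p = 1.9e-08).

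LAG-3, a CD4-related receptor that binds MHC class II among other ligands, gave a rise of similar size. Lag3 (ENSMUSG00000030124, chromosome 6, 124904361 to 124911705) had 149, 147 and 146 CPM with IL-3 supernatant, against 92.8, 89.8 and 81.8 CPM with PBS supernatant. The groups lay far apart, and the spread with IL-3 supernatant, a coefficient of variation of 1.32%, was below that with PBS supernatant, 6.48%. The level was 1.67-fold higher with IL-3 supernatant, or 0.74 on the log2 scale (SE 0.06), at an edgeR adjusted p = 6.1e-08.

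BTLA binds HVEM (Tnfrsf14) and carries inhibitory motifs in its tail. Btla (ENSMUSG00000052013, chromosome 16, 45224315 to 45257670) had 85.1, 108 and 104 CPM with IL-3 supernatant, against 87.0, 77.6 and 81.9 CPM with PBS supernatant. The groups overlapped, since IL-3 supernatant replicate 1 lay below PBS supernatant replicate 1. The 1.21-fold rise, 0.27 on the log2 scale (SE 0.08) at an edgeR adjusted p = 0.0245, was the smallest of the 6 changes called. The call was lost without either of IL-3 supernatant replicates 2 and 3 (edgeR adjusted p = 0.0842 and 0.107) or without either of PBS supernatant replicates 2 and 3 (edgeR adjusted p = 0.0699 and 0.0805). It was also lost with the replicate number as a block (edgeR adjusted p = 0.0552), on TPM of 6 libraries (limma adjusted p = 0.077) and in 3 fits on TPM of 5 libraries (limma adjusted p from 0.201 to 0.487). The call thus ended in 9 of 18 alternatives.

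Among the receptors that fell, Cd101 changed most. CD101 is an immunoglobulin superfamily protein that restrains T cell activation. Cd101 (ENSMUSG00000086564, chromosome 3, 100993529 to 101029556) had 1.03, 1.17 and 1.53 CPM with IL-3 supernatant, against 8.62, 8.87 and 8.10 CPM with PBS supernatant. These rest on 20, 26 and 30 counts with IL-3 supernatant and on 155, 160 and 142 counts with PBS supernatant, and the groups lay far apart. The level was 6.83-fold lower with IL-3 supernatant, a log2 value of -2.77 (SE 0.22) at an edgeR adjusted p = 3.7e-08. On log2(TPM + 1), a scale that understates changes of low genes, it was -1.79.

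CD39, the enzyme that starts the breakdown of extracellular ATP, was also low in count. Entpd1 (ENSMUSG00000048120, chromosome 19, 40612366 to 40741602) had 2.27, 1.89 and 2.04 CPM with IL-3 supernatant, against 5.45, 6.26 and 5.59 CPM with PBS supernatant. The highest library with IL-3 supernatant was below the lowest with PBS supernatant. Summed counts were 126 with IL-3 supernatant and 309 with PBS supernatant, and the level was 2.79-fold lower, a log2 value of -1.48 (SE 0.22) at an edgeR adjusted p = 6.6e-05. On log2(TPM + 1) of 5 libraries it was -0.73.

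VISTA (Vsir), a B7-related protein that binds PSGL-1 (Selplg) at acidic pH, fell without reaching 2-fold. Vsir (ENSMUSG00000020101, chromosome 10, 60346851 to 60372684) had 39.7, 34.8 and 39.4 CPM with IL-3 supernatant, against 72.1, 74.0 and 80.3 CPM with PBS supernatant. The groups lay apart, at a level 1.99-fold lower with IL-3 supernatant, a log2 value of -0.99 (SE 0.08) at an edgeR adjusted p = 2.8e-08. Vsir lies inside Cdh23, a gene on the other strand, which fell too, by 0.83 on the log2 scale (edgeR adjusted p = 0.00192), with 111, 82 and 105 counts with IL-3 supernatant and 150, 152 and 166 counts with PBS supernatant. The setting for strand is not given in the sources used here, so reads of these genes cannot be told apart where they overlap.

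**Figure D2:**
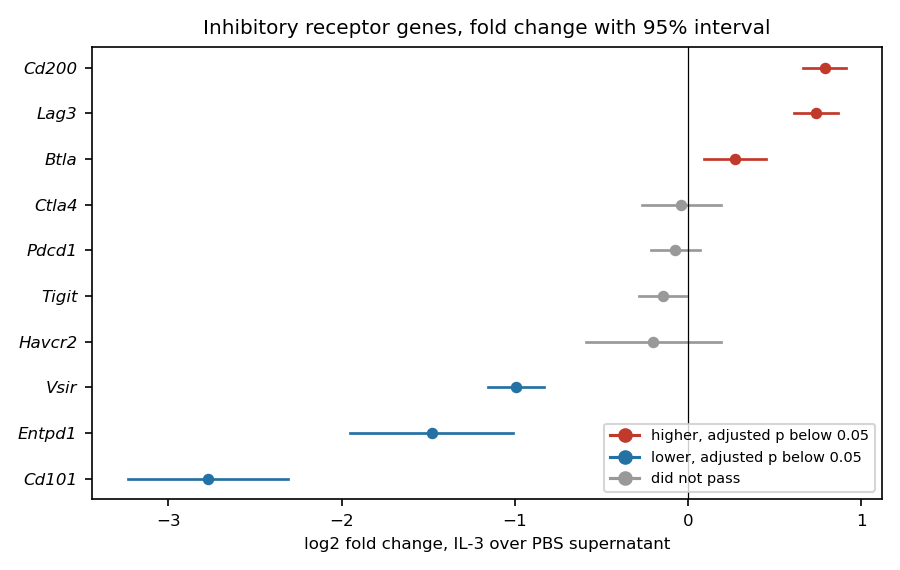
Log2 fold change of the 10 receptor genes, IL-3 over PBS supernatant, with 95% intervals from the edgeR fit; red marks genes called higher, blue genes called lower and grey genes that did not pass. The values run from -2.77 for Cd101 to 0.79 for Cd200, and the 4 grey genes lie between -0.20 and -0.04.

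The transcript of PD-1, the best known of these receptors, did not pass. Its mean was 76.1 ± 5.76 CPM with IL-3 supernatant and 80.0 ± 3.05 CPM with PBS supernatant (SD, n = 3 each). Pdcd1 (ENSMUSG00000026285, chromosome 1, 94038305 to 94052553) had 73.8, 71.8 and 82.6 CPM with IL-3 supernatant, against 77.8, 83.5 and 78.8 CPM with PBS supernatant, and the groups overlapped. Its log2 fold change was -0.07 with a 95% interval of -0.21 to 0.07 (edgeR adjusted p = 0.449). The interval leaves room for a small change in either direction.

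TIM-3 (Havcr2), a receptor linked to terminal exhaustion, was low and variable. Havcr2 (ENSMUSG00000020399, chromosome 11, 46454935 to 46481255) had 5.56, 7.79 and 7.30 CPM with IL-3 supernatant, against 6.18, 8.26 and 9.35 CPM with PBS supernatant. Its coefficient of variation was 17.0% with IL-3 supernatant and 20.3% with PBS supernatant, and the log2 fold change of -0.20 had a 95% interval of -0.59 to 0.19 (edgeR adjusted p = 0.458).

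CTLA-4 competes with CD28 for CD80 and CD86. Ctla4 (ENSMUSG00000026011, chromosome 1, 60887000 to 60915832) had 252, 279.7 and 279.8 CPM with IL-3 supernatant, against 326, 257 and 251 CPM with PBS supernatant. PBS supernatant replicate 1 was above all other libraries, and the groups overlapped. The log2 fold change was -0.04, with a 95% interval of -0.27 to 0.19 (edgeR adjusted p = 0.823), and it was 0.09 without PBS supernatant replicate 1, so no direction is given.

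TIGIT binds CD155 (Pvr) in competition with CD226. Tigit (ENSMUSG00000071552, chromosome 16, 43648867 to 43664146) had 60.4, 60.5 and 64.1 CPM with IL-3 supernatant, against 70.3, 67.3 and 67.1 CPM with PBS supernatant. The groups did not overlap in CPM, but the log2 fold change of -0.15 (SE 0.06, 95% interval -0.28 to -0.01) did not pass (edgeR adjusted p = 0.0958). In TPM, which also divides by transcript length, Tigit had 122.3, 122.3 and 132 TPM with IL-3 supernatant, against 144, 129 and 136 TPM with PBS supernatant. The groups overlapped there through PBS supernatant replicate 2 alone, the library whose TPM were summed from isoforms.

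On the TPM scale, the levels of the receptors can be compared with each other. With IL-3 supernatant, the mean level was 276 TPM for Ctla4 and 265 TPM for Cd200, and these overlapped. Below them stood Lag3 at 144 TPM, Tigit at 125 TPM, Pdcd1 at 77.2 TPM, Btla at 59.7 TPM and Vsir at 19.5 TPM, then Havcr2 at 4.96 TPM, Entpd1 at 1.61 TPM and Cd101 at 0.755 TPM, with no overlap between neighbours in that order. With PBS supernatant, Ctla4 led at 278 TPM, above Cd200 at 153 TPM and Tigit at 137 TPM, which overlapped. Lag3 at 84.9 TPM and Pdcd1 at 79.8 TPM overlapped as well, and they were followed by Btla at 48.8 TPM and Vsir at 36.1 TPM. Havcr2 at 5.60 TPM and Cd101 at 5.04 TPM overlapped, and Entpd1 was lowest at 3.59 TPM. Lag3 thus ranked above Tigit with IL-3 supernatant and below it with PBS supernatant, and Cd101 ranked below Entpd1 with IL-3 supernatant and above it with PBS supernatant. The rest of the order was shared. Averaged over the 6 libraries, Ctla4 stood above 95.6% of all genes tested and Entpd1 above 18.0% of them.

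The TPM of the 10 receptors summed to 923, 975 and 1025 with IL-3 supernatant, against 890, 784 and 818 with PBS supernatant. Ctla4 alone made up 27.7% to 29.1% of that sum with IL-3 supernatant and 30.9% to 37.5% with PBS supernatant. The TPM of PBS supernatant replicate 2 came from deposited values per isoform, summed per gene, and these also show how the models of a gene shared its level in that library. There the full-length Ctla4-201 held 99.9% of the TPM of Ctla4. Models not annotated as protein coding, among them nonsense-mediated decay models, held 43.1% of that of Cd200. The place of Cd200 in the order therefore depends on how its models were counted. Btla was split between Btla-202 at 53.5% and Btla-201 at 46.6%, and Cd101 between Cd101-202 at 68.3% and Cd101-201 at 31.7%, all of them coding models.

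The ligands and counter-receptors of these proteins, measured in the same T cells, changed in both directions. Of 19 listed genes 15 were tested, 5 rose and 7 fell, against 14.8% and 16.1% of all genes. Their median log2 fold change was -0.05. Cd274, which encodes the PD-1 ligand PD-L1, had 112 ± 8.49 CPM with IL-3 supernatant and 45.7 ± 2.50 CPM with PBS supernatant (SD, n = 3 each), a rise of 1.29 on the log2 scale (SE 0.07) at an edgeR adjusted p = 3.8e-10. Pdcd1lg2, which encodes PD-L2, had 19.4 ± 1.04 CPM with IL-3 supernatant and 15.1 ± 1.65 CPM with PBS supernatant, a rise of 0.36 on the log2 scale that lost its call without any of 4 single libraries, IL-3 supernatant replicate 1 or 3 or PBS supernatant replicate 1 or 3 (edgeR adjusted p from 0.0537 to 0.0815). Both ligands of PD-1 were therefore called higher while the receptor's own transcript did not pass. Lgals3, a galectin that binds LAG-3, rose by 0.61 on the log2 scale.

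Selplg, which encodes the VISTA partner PSGL-1, had 182 ± 15.8 CPM with IL-3 supernatant and 344 ± 14.4 CPM with PBS supernatant, a log2 fold change of -0.92, so it fell along with Vsir. Cd80, a ligand of CTLA-4 and CD28, fell by 0.68 on the log2 scale, and Lgals9, a galectin that binds TIM-3, fell by 0.56. Ceacam1, another TIM-3 partner, stood at 0.163 ± 0.0152 CPM with IL-3 supernatant and 1.44 ± 0.401 CPM with PBS supernatant, a log2 fold change of -3.09 on few counts. Tnfrsf14, the BTLA ligand, had 5.47 ± 1.24 CPM with IL-3 supernatant and 5.66 ± 0.323 CPM with PBS supernatant and did not pass (log2 fold change -0.05, SE 0.19). The other called ligands, Nectin3 and H2-Ab1 among those that rose and Pvr, Cd86 and Hmgb1 among those that fell, are named to complete the count, after their values were seen.

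**Figure D3:**
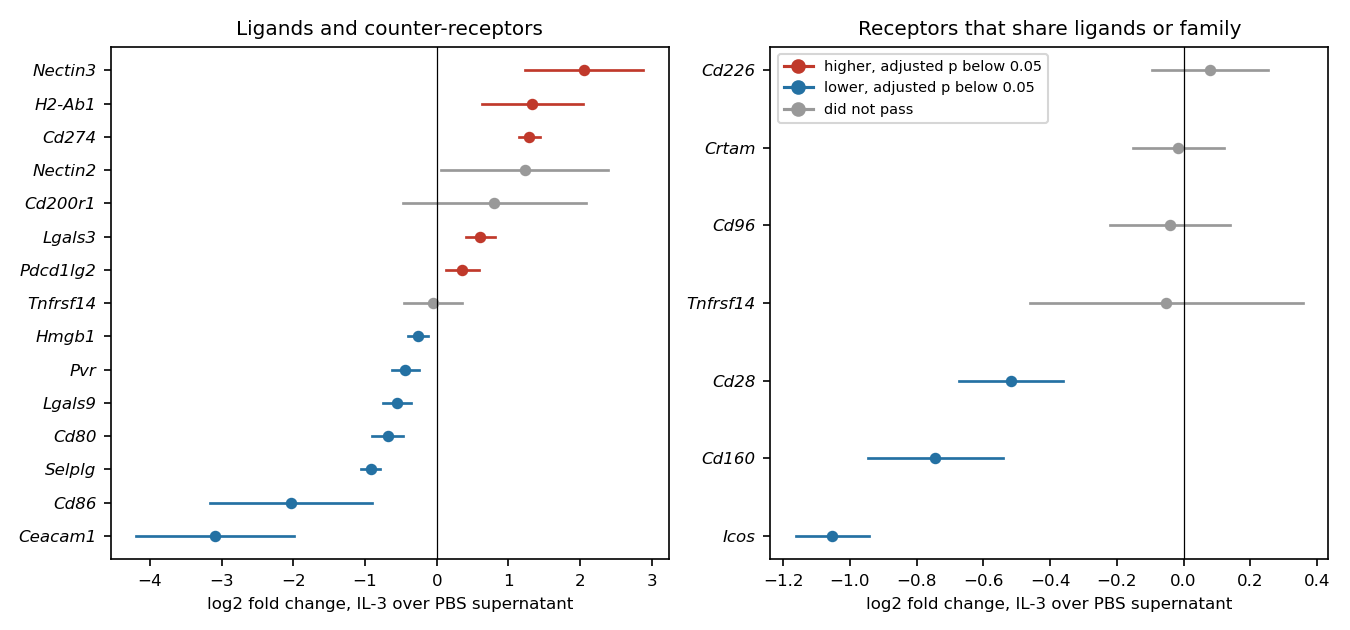
Log2 fold change, IL-3 over PBS supernatant, with 95% intervals, of tested ligands and counter-receptors (left) and of receptors that share a ligand or family with the checkpoint receptors (right); red marks genes called higher, blue genes called lower and grey genes that did not pass. On the left 5 genes are red and 7 blue, and on the right 3 are blue and none is red. Tnfrsf14, the BTLA ligand, is in both panels.

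A list of 8 genes held activating partners and receptors that share a ligand or family, with the BTLA ligand Tnfrsf14 again among them, and 7 were tested. In edgeR's test 0 rose and 3 fell, against 14.8% and 16.1% of all genes. At an unadjusted p below 0.05, 0 were higher, and 0 in DESeq2 or limma-voom, which used the same 6 libraries. Icos, a costimulatory receptor of the CD28 family, had 137 ± 1.34 CPM with IL-3 supernatant and 283 ± 8.97 CPM with PBS supernatant, a log2 value of -1.05 (SE 0.05) at an edgeR adjusted p = 1.1e-10. Cd28 itself fell by 0.52 on the log2 scale, and Cd160, which shares HVEM with BTLA, fell by 0.74. Cd226 (0.08, SE 0.08) and Cd96 (-0.04, SE 0.08), the receptors that share ligands with TIGIT, did not pass.

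The ratio of a receptor to its partner within a library does not depend on scaling between libraries, and 12 such ratios were compared with a two-sided exact permutation test. With 3 libraries against 3 the exact permutation test cannot go below p = 0.1, and after adjustment over the 12 ratios the smallest p was 0.171, so none could pass. Because counts were not divided by length, a ratio is compared only between groups. Icos was paired with Ctla4 as a neighbouring gene of the CD28 family, not as a receptor for the same ligand. The log2 ratio of Ctla4 to Icos was 0.87, 1.03 and 1.05 with IL-3 supernatant, against 0.16, -0.09 and -0.19 with PBS supernatant. All 3 libraries with IL-3 supernatant were higher, and the means differed by 1.02 (exact p = 0.1).

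The log2 ratio of Ctla4 to Cd28 was higher with IL-3 supernatant by 0.49, and that of Btla to Cd160 by 1.00, again in 3 of 3 libraries each (exact permutation p = 0.1). The log2 ratio of Pdcd1 to Cd274 was -0.49, -0.64 and -0.54 with IL-3 supernatant, against 0.68, 0.90 and 0.84 with PBS supernatant, a difference of -1.37. That of Pdcd1 to Pdcd1lg2 differed by -0.44, with no overlap either. The ratios of Tigit to Cd226 and to Cd96, of Btla to Tnfrsf14, of Havcr2 to Lgals9 and of Cd200 to Cd200r1, the receptor of CD200, overlapped between groups. Cd200r1 itself did not pass with all libraries (edgeR adjusted p = 0.351) and passed without PBS supernatant replicate 1 (edgeR adjusted p = 0.0487). The log2 ratio of Entpd1 to Nt5e was -0.47, -1.20 and -1.21 with IL-3 supernatant, against -2.44, -2.21 and -2.59 with PBS supernatant, a difference of 1.46 (exact permutation p = 0.1). In all, 7 of the 12 ratios did not overlap, in pairs chosen with earlier results known. Taken singly, 43.6% of all genes did not overlap in CPM, and no share over other pairs was computed. Ctla4 and Pdcd1 did not pass alone, so their ratios mostly restate the called changes of Icos, Cd28, Cd274 and Pdcd1lg2. The last of the 7 ratios, Lag3 to its neighbour Cd4, rests on few counts of Cd4. These were 0, 11 and 8 with IL-3 supernatant and 8, 15 and 14 with PBS supernatant.

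**Figure D4:**
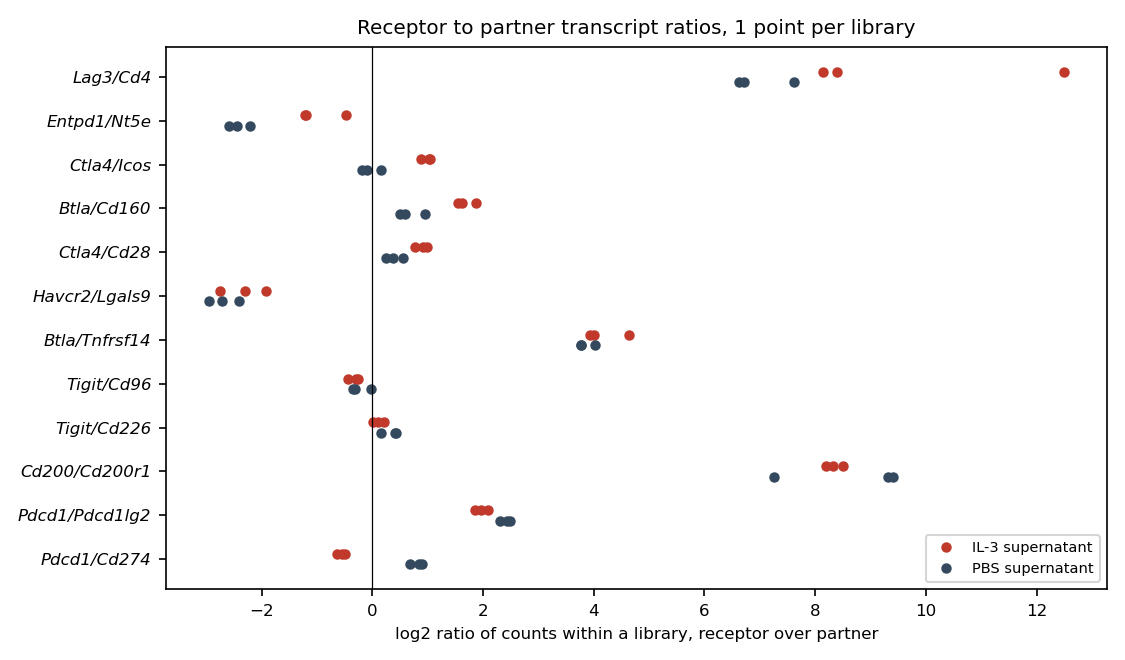
Log2 ratio of receptor counts to partner counts within a library (0.5 added to each count), 1 point per library, IL-3 supernatant in red above PBS supernatant in dark blue. The groups lie apart for 7 of 12 pairs, where 43.6% of all genes taken singly lie apart in CPM. The point of Lag3 to Cd4 farthest to the right comes from a library with a Cd4 count of 0.

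The genes that make and sense adenosine moved in both directions around Entpd1. Of 15 listed genes 14 were tested, 5 rose and 6 fell, against 14.8% and 16.1% of all genes. Nt5e, which encodes CD73, the enzyme that follows CD39, had 4.09 ± 0.840 CPM with IL-3 supernatant and 30.9 ± 2.60 CPM with PBS supernatant, a log2 value of -2.91 (SE 0.14) at an edgeR adjusted p = 7.5e-11. Entpd1 and Nt5e, the enzymes of the route to adenosine, therefore both fell, Nt5e by the larger log2 value. Dpp4, whose product CD26 binds adenosine deaminase, fell by 1.77 on the log2 scale, Entpd5, an ectonucleotidase relative, by 1.31, and Slc29a1, a nucleoside transporter, by 0.66. The adenosine receptor genes on the list, Adora2a and Adora2b, rose. Adora2a had 64.9 ± 1.64 CPM with IL-3 supernatant and 33.0 ± 2.16 CPM with PBS supernatant, a log2 fold change of 0.98. Adora2b had 13.0 ± 0.105 CPM with IL-3 supernatant and 5.45 ± 0.339 CPM with PBS supernatant.

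Entpd1 and Nt5e are also expressed by regulatory T cells, as are Ctla4 and Tigit, and Foxp3, the factor that defines those cells, differed between the groups. Foxp3 had 0.258, 0.180 and 0.0511 CPM with IL-3 supernatant, against 4.84, 7.59 and 9.58 CPM with PBS supernatant, a log2 fold change of -5.43 (edgeR adjusted p = 3.2e-08). Cd4 was below the filter, at 0.301 ± 0.265 CPM with IL-3 supernatant and 0.692 ± 0.214 CPM with PBS supernatant. Of the 4 markers of CD4 T cells, 1 rose (Zbtb7b) and 1 fell (Foxp3). Their summed level was 18.1 to 20.0 CPM with IL-3 supernatant and 14.1 to 16.0 CPM with PBS supernatant. Most of the sum with IL-3 supernatant was Zbtb7b, at 18.0 ± 1.3 CPM, against 6.4 ± 1.7 CPM with PBS supernatant. The remaining marker, Cd40lg, had 0.385 ± 0.144 CPM with IL-3 supernatant and 0.913 ± 0.373 CPM with PBS supernatant and did not pass. The part of cells with these markers in the falls of Entpd1 and Nt5e was not tested. In bulk samples, fewer cells of a type and less RNA per cell cannot be told apart.

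**Figure D5:**
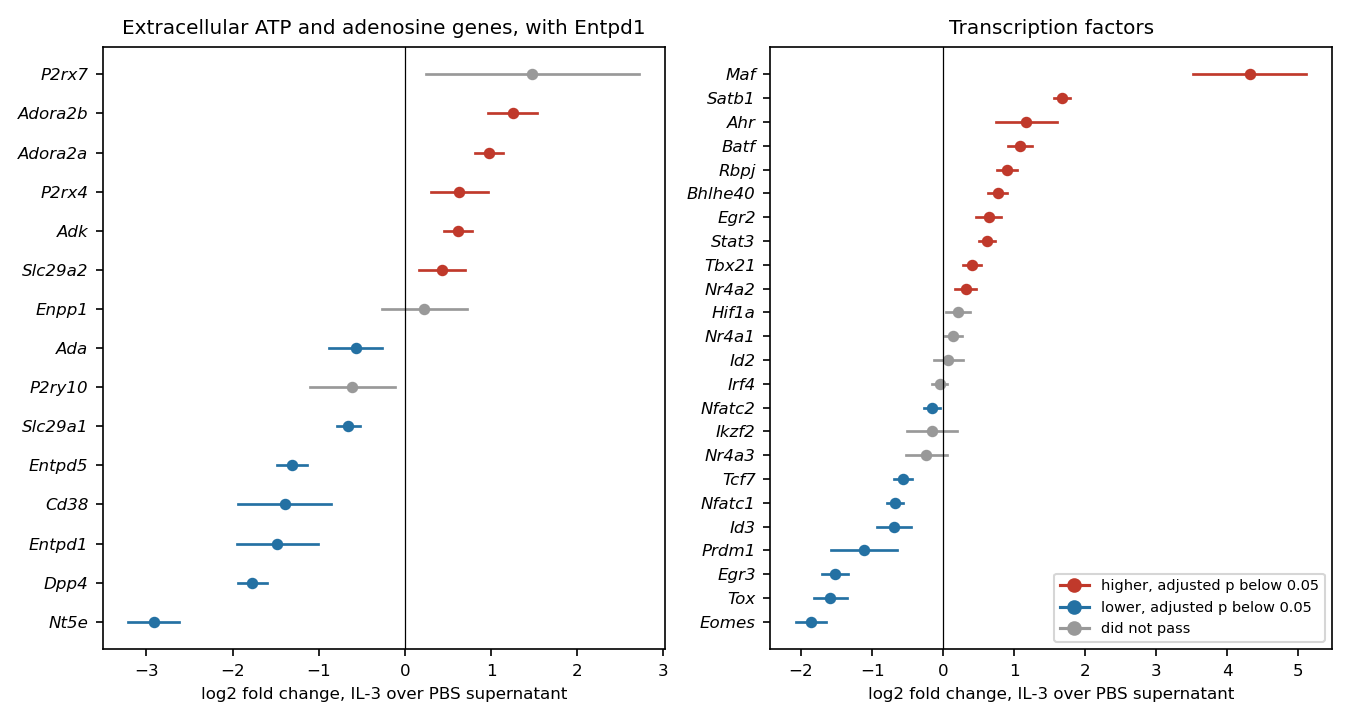
Log2 fold change, IL-3 over PBS supernatant, with 95% intervals, of Entpd1 with the tested genes of extracellular ATP and adenosine handling (left) and of tested transcription factors (right); red marks genes called higher, blue genes called lower and grey genes that did not pass. Nt5e lies lowest on the left at -2.91, and Eomes lies lowest on the right at -1.86.

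Transcription factors known to act on checkpoint genes changed in both directions too. Of 25 listed 24 were tested, 10 rose and 8 fell, against 14.8% and 16.1% of all genes. Their median log2 fold change was 0.11. Satb1, a chromatin organiser reported to repress Pdcd1, had 803 ± 12.9 CPM with IL-3 supernatant and 252 ± 13.4 CPM with PBS supernatant, a log2 fold change of 1.67 (SE 0.05). Batf, an AP-1 family factor, rose by 1.08 on the log2 scale, and Rbpj, the effector of Notch signalling, by 0.90. Eomes, a T-box factor of effector and exhausted CD8 T cells, had 11.5 ± 0.788 CPM with IL-3 supernatant and 41.6 ± 3.35 CPM with PBS supernatant, a log2 fold change of -1.86. Egr3 fell by 1.53, and Tox, a factor required for exhausted cells, had 8.62 ± 0.374 CPM with IL-3 supernatant and 26.0 ± 2.17 CPM with PBS supernatant. Named after their values were seen, Egr2 rose by 0.64 and Maf by 4.31, the largest log2 fold change of the list. Maf had 7.19 ± 1.46 CPM with IL-3 supernatant and 0.358 ± 0.284 CPM with PBS supernatant.

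Downstream of the receptors, 20 of 20 listed signalling genes were tested, 2 rose and 9 fell, against 14.8% and 16.1% of all genes. Their median log2 fold change was -0.15. Pag1, a membrane adaptor that holds the kinase CSK near the receptor, had 18.8 ± 0.334 CPM with IL-3 supernatant and 45.2 ± 4.33 CPM with PBS supernatant, a log2 fold change of -1.27. Csk itself fell by 0.46, Rasa1, a brake on RAS, by 0.84, Fyn, a Src family kinase, by 0.41, and Inpp5d, which encodes the lipid phosphatase SHIP-1, by 0.42. Ptpn6, which encodes SHP-1, fell by 0.31. The 2 that rose, Cblb by 0.31 and Ptpn2 by 0.28 on the log2 scale, are named after their values were seen. Of the genes that traffic or modify the receptors, 12 of 12 were tested, 3 rose and 5 fell, against the same shares of all genes. Lrba, which protects CTLA-4 from degradation, rose by 0.48 on the log2 scale, and Fut8, the enzyme of core fucosylation that acts on PD-1, fell by 1.15. Cmtm6, which stabilises PD-L1, fell by 0.32, Ap1m1 by 0.26 and Adam10, a protease that sheds LAG-3, by 0.30. Fbxo38, a ubiquitin ligase subunit for PD-1, rose by 0.24. Inpp5d, Ap1m1 and Fbxo38 lost their calls in 3 fits on TPM of 5 libraries (limma adjusted p from 0.0574 to 0.256). Ptpn6, Rasa1, Fyn, Lrba and Adam10 lost theirs in the unfiltered fit on TPM of 5 libraries (limma adjusted p from 0.0564 to 0.196).

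Another list held 24 genes, most of them inhibitory receptors, with the adaptor Lax1 and the B7 family genes Cd276 and Vtcn1. Of these, 21 were matched to an identifier and 9 were tested. Among the 9, 2 rose and 5 fell, against 14.8% and 16.1% of all genes. Cd5 and Cd6, scavenger-type receptors that dampen antigen receptor signals, rose by 0.33 each on the log2 scale. Lax1, a membrane adaptor that dampens lymphocyte signalling, had 8.59 ± 0.576 CPM with IL-3 supernatant and 19.8 ± 1.74 CPM with PBS supernatant, and Klrc1, which encodes NKG2A, fell by 0.77. Cd160 and Ceacam1, given above, are on this list as well, and the fifth gene that fell, Lair1, is named to complete the count.

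Within 200 kb of the receptors lay 17 protein-coding genes that are the nearest on 1 side and are no receptor of the set, of which 10 were tested. Neighbours did not all follow the receptor. Cd28 and Icos, on either side of Ctla4, fell while Ctla4 did not pass. Ptms, 2.0 kb from Lag3, rose by 0.39 on the log2 scale and Lag3 rose as well. Psap, 44.3 kb from Vsir, fell by 0.43. Btla and Cd200 neighbour each other at 124.5 kb and both rose, though the call of Btla was lost in 9 of 18 alternatives. Atg3, on the other side of Btla, did not pass. Med7 rose beside Havcr2, and Zbtb20 beside Tigit, Ttf2 and Ptgfrn beside Cd101 and Tctn3 beside Entpd1 did not pass. The call of Med7 was lost without IL-3 supernatant replicate 3 (edgeR adjusted p = 0.0502) and on TPM of 6 libraries (limma adjusted p = 0.0637). It was also lost in 3 fits on TPM of 5 libraries (limma adjusted p from 0.0738 to 0.299). Zbtb20 passed without PBS supernatant replicate 2 (edgeR adjusted p = 0.0382) and with no filter on low counts (edgeR adjusted p = 0.0454). Ptgfrn passed without IL-3 supernatant replicate 1 (edgeR adjusted p = 0.0191).

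Markers of the sorted cells and of other cells were measured in the same libraries. Library totals ranged from 17377052 to 22174902 counts, and a count of 0 allows at most 0.135 to 0.173 CPM, taking 3 counts as the limit, which covers counting error only. The 8 CD8 T cell markers were all detected, and 7 of them fell, with a summed level of 1785 to 1951 CPM with IL-3 supernatant and 2635 to 2798 CPM with PBS supernatant. Of the 8 basophil and mast cell markers, Mcpt8, Fcer1a, Ms4a2 and Prss34 were at 0 in all 6 libraries, and the summed level was 0.515 to 0.901 CPM with IL-3 supernatant and 2.27 to 3.28 CPM with PBS supernatant, nearly all from Kit. Among B cell markers, Ighm fell, with 117 ± 10.8 CPM with IL-3 supernatant and 307 ± 16.2 CPM with PBS supernatant. Ebf1 rose, with 4.76 ± 1.09 CPM with IL-3 supernatant and 0.413 ± 0.188 CPM with PBS supernatant. Cd79b did not pass, and Cd79a, Ms4a1, Pax5 and Cd22 were below the filter. The summed level of 6 monocyte and macrophage markers was at most 0.153 CPM with IL-3 supernatant and 0.285 CPM with PBS supernatant. That of 4 NK cell markers was at most 0.675 CPM with IL-3 supernatant and 0.668 CPM with PBS supernatant. For 6 dendritic cell markers it was at most 8.17 CPM with IL-3 supernatant and 5.12 CPM with PBS supernatant. Most of this came from Zbtb46, which rose, with 6.35 ± 1.22 CPM with IL-3 supernatant and 3.82 ± 0.988 CPM with PBS supernatant. The part of these differences in the receptor results was not tested. PBS supernatant replicate 2 held 4.51% of its counts in CT010467.1, a single annotated gene, against 0.433% to 2.2% in the other libraries, and without that library Cd200, Lag3, Cd101, Entpd1 and Vsir kept their calls and directions, so that 2 receptors were higher in place of 3, and 3 were lower.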

How the data were processed

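Poly(A) RNA of 6 libraries, 3 per group by title, was sequenced after an Illumina TruSeq preparation, per the labels' protocols. Per the submitters' processing notes, RSEM 1.2.12, Bowtie2 2.2.0, edgeR 3.20.9 and GRCm38 are named, while which annotation and strand setting they used is not given in the sources used here. The authors deposited expected counts per gene, which divide ambiguous reads and were rounded to whole numbers here, and TPM, scaled for length and library; 5 libraries have them by gene, and for PBS supernatant replicate 2 isoform TPM were summed here (99.7% matched a gene). Of 46517 identifiers, 46005 matched a symbol, and coordinates are those of GENCODE on GRCm38. Genes were tested with edgeR 4.0.16 under R 4.3.3 (TMM, filterByExpr, robust quasi-likelihood fit, group only, Benjamini-Hochberg over all genes), with SE from the F statistic. The same fit was run on simulated data, where the share of false calls was above the nominal rate and most of the smallest changes were missed. Far fewer genes changed in the simulation than were called here, so its shares need not hold for these calls. Alternatives used DESeq2 1.42.0 and limma 3.58.1, with Python 3.11.15 for tables. Log2 values are IL-3 minus PBS supernatant. The receptors, lists, pairs and motifs were chosen with earlier results of these data known. All 10 receptors are named, with the 6 genes of smallest p of each list, both genes of each pair and the nearest coding neighbours. Library totals were 17377052 to 22174902. Some marker results are not reported here.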

Additional observations from a re-analysis of the deposited data

How the results depend on the processing

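Across 18 alternatives, Cd101, Vsir, Lag3 and Cd200 kept their direction and call, and Pdcd1, Havcr2 and Tigit stayed below the threshold with their sign. Btla lost its call in 9, among them TPM of 6 libraries (adjusted p = 0.077), and Entpd1 lost it in 1, TPM without a filter (adjusted p = 0.0503). The sign of Ctla4 turned on TPM of 6 libraries (0.00234), and its log2 fold change ranged from -0.108 to 0.0909 when each library was left out. On TPM of 5 libraries, genes called higher numbered 1156 at a pseudocount of 1, 1158 at 0.1 and 669 unfiltered, and genes called lower numbered 820 unfiltered; 1 library fewer entered these fits. Leaving out each library in turn gave 1456 to 1916 higher and 1601 to 2102 lower. Among the 50 other named genes, 842 of 889 values kept call and sign, 32 lost and 4 gained a call and 11 turned sign, none of them called. With each library left out, those that turned ranged from -0.0775 to 0.0299 for Atg3, from -0.128 to 0.0234 for Cd96, from -0.235 to 0.108 for Tnfrsf14 and from -0.0851 to 0.0387 for Tctn3, which was also 0.00632 with library size only and 0.0258 on TPM of 6 libraries. The ratio of Cd200 to Cd200r1, -0.32 with all libraries, ranged from -1.02 to 0.0556; the cause was not tested. Deviations from the group mean correlated at -0.148, 0.0517 and 0.255 between libraries with the same replicate number. Between libraries with different numbers the correlations ranged from -0.284 to 0.256. With 3 libraries per group, these values cannot decide whether the numbers pair the libraries. With the replicate block 1634 genes were higher and 1776 lower, with Btla at an edgeR adjusted p of 0.0552. Depth limits Cd101, Entpd1 and Havcr2 most.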
